A study of Mus musculus with 2 samples.

Results

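The 27 genes described here encode enzymes and regulators of cholesterol and fatty acid synthesis, and they were taken by symbol from the 32285 genes counted in both libraries. They are Hmgcs1, Mvk, Pmvk, Mvd, Idi1 and Fdps of the mevalonate pathway, Fdft1, Sqle, Lss, Cyp51, Tm7sf2, Msmo1, Nsdhl, Hsd17b7, Ebp, Sc5d and Dhcr7 of squalene and sterol synthesis, Srebf1, Srebf2, Insig1 and Stard4 of sterol sensing and carriage, and Acly, Acaca, Fasn, Elovl6, Scd1 and Scd2 of fatty acid synthesis and desaturation. The rule takes them by name and uses no measured value, although the list was drawn up with earlier results of these data known, and each had 1 row in both tables. Colorectal tumours induced in mice with azoxymethane and dextran sulphate sodium were dissociated and read by 10x Genomics droplet sequencing of the 3′ ends of transcripts. There was 1 library of pooled tumours from wild-type mice (WT) and 1 from mice with a global knockout of the kinase gene Stk25 (STK25 wKO). The allele, the strain, the age and the number of mice pooled are not stated in the labels or methods. The series record also mentions a sort by mCherry, and what was sorted is not given.

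Cells make cholesterol from acetyl-CoA through mevalonate, farnesyl diphosphate, squalene and lanosterol, and they make fatty acids from the same acetyl-CoA through malonyl-CoA. The transcription factors SREBP1 and SREBP2, encoded by Srebf1 and Srebf2, are held in the endoplasmic reticulum by INSIG proteins when sterol is plentiful and switch on these genes when it is scarce. The intestinal epithelium is renewed throughout life, and its dividing cells need new membrane lipid.

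The library labelled WT held 12542 barcodes and 38737373 unique molecular identifiers (UMIs, counted transcripts), and the library labelled STK25 wKO held 14168 barcodes and 66297749 UMIs. After filtering, 12270 and 13883 cells remained, with a median of 1383 and 2091 UMIs per cell. The libraries shared 230 cell barcodes, of which 221 remained in each. Stk25 itself was at 118 CPM (its share of all UMIs, scaled to 1000000) over all cells of the library labelled WT and at 127 CPM in the other, and at 167 and 156 CPM in epithelial cells. The UMIs of the targeted gene therefore do not check the genotype, and the libraries are named by their labels throughout, as the WT-labelled and the knockout-labelled library. With 1 library per group no difference has a replicate check and no test was made. All intervals are exact 95% intervals that cover counting error only, and PCR duplicates were collapsed by UMI. In each pair of values below, the WT-labelled library comes first, and a log2 ratio is that of the knockout-labelled over the WT-labelled library.

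Cells were clustered with the 27 genes and the other listed lipid genes left out, so that these genes did not define the classes across which they were compared. Epithelial cells numbered 2674 and 4788 and carried all 10 of the listed epithelial markers, each in at least 10% of cells, in both libraries. T or NK cells numbered 3921 and 1424, B cells 1653 and 662, neutrophils 232 and 1618, macrophages or monocytes 313 and 1117, endothelial cells 487 and 832, and fibroblasts 666 and 805. Whether single epithelial cells were malignant was not tested.

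Short stretches of sequence before the transcription start are shown for 4 members, since the pathway is known for shared control through promoter elements read by SREBP, NF-Y and Sp1. Of the 27 genes, 21 had an entry in the RefSeq promoter table (GRCm38.p6), with 26 windows in all. Hmgcs1 and Srebf2 are shown because they held the sterol-element letters, Ebp because its level was higher in the knockout-labelled library, and Fasn as the central gene of the fatty acid branch. The stretches run 5′ to 3′ along the gene, and no other gene is annotated in them. Those of Hmgcs1, Ebp and Fasn are the whole 250 bases before the RefSeq start, while that of Srebf2 is the first 162 of its 250 bases and stops where the GENCODE annotation begins the gene. The motif counts below use the whole windows. The stretch shown for Hmgcs1 is chr13:119690101-119690350 on the plus strand, that of Ebp chrX:8193513-8193762 on the minus strand, that of Srebf2 chr15:82147019-82147180 on the plus strand and that of Fasn chr11:120824548-120824797 on the minus strand. Capitals mark matches of TCACCCCA, TCACNCCAC and CCAAT, where ATTGG is CCAAT read on the other strand.
Hmgcs1: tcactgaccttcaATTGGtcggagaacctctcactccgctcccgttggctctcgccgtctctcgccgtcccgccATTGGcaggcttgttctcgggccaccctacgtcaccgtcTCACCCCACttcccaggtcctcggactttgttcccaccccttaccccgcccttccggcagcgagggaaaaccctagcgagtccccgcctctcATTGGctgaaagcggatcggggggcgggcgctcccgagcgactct
Ebp: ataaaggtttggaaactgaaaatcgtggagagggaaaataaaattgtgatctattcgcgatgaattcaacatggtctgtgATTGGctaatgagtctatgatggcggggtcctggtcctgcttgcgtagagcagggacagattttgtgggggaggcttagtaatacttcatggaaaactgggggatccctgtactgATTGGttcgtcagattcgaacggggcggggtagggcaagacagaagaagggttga
Srebf2: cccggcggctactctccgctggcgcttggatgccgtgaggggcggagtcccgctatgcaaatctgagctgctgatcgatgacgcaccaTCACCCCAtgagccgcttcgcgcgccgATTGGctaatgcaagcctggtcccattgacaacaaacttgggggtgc
Fasn: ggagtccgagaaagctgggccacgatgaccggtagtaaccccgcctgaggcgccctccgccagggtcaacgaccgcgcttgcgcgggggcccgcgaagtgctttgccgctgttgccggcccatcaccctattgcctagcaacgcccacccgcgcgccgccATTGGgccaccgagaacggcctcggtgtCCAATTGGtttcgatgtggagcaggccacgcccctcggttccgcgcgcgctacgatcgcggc

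On either strand, the NF-Y box CCAAT was present within 250 bases before the start in 19 of the 26 windows (73.1%), from 18 of the 21 genes. The share was 33.8% over all 32851 windows of the table and 34.9% over the 14304 windows of genes counted in epithelial cells. The Sp1 box GGGCGG was present in 19 member windows (73.1%), from 17 genes, against 32.7% of all windows and 54.6% of those of genes counted in epithelial cells. TCACCCCA, the core letters of a sterol regulatory element, was found in the windows of Hmgcs1 and Srebf2 alone, 7.69% of member windows against 1.34% of all. The related form TCACNCCAC leaves 1 base free but needs a further C at its end. It matched only in Hmgcs1, where it overlaps the other match (3.85% against 1.05% of all windows). A match is a run of letters and not a measured binding site, and no match says only that these letters were not in this window. Fdps, Fdft1, Sqle, Stard4, Scd1 and Scd2 had no entry.

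Epithelial cells held the most transcripts of these genes among the 7 classes compared. Dendritic cells (207 and 143) and the smaller classes were left out and are given under other observations. Class rankings in the text that follows are among these 7 unless stated. Summed over the 27 genes, epithelial cells had 2374 CPM (2354 to 2394) in the WT-labelled library and 2479 CPM (2464 to 2493) in the knockout-labelled one, which is 20.1 and 23.3 UMIs per cell. B cells followed with 1324 and 1619.8 CPM, and T or NK cells had 1057 and 1220.4. Macrophages had 1027 and 1127 CPM, neutrophils 1057 and 956, fibroblasts 965 and 1125, and endothelial cells 878 and 1011. Of the 27 genes, 23 were highest in epithelial cells in both libraries among these 7 classes, where 21.7% of 16519 counted genes were. Pmvk is among the 23, but was higher in dendritic cells of both libraries. Scd2, also among them, was higher in glia of the WT-labelled library. A 3′ UMI count is not meant to grow with transcript length, so levels of different genes are given on 1 CPM scale. Whether intronic reads were counted is not stated, so gene span may still enter these levels.

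**Figure D1:**
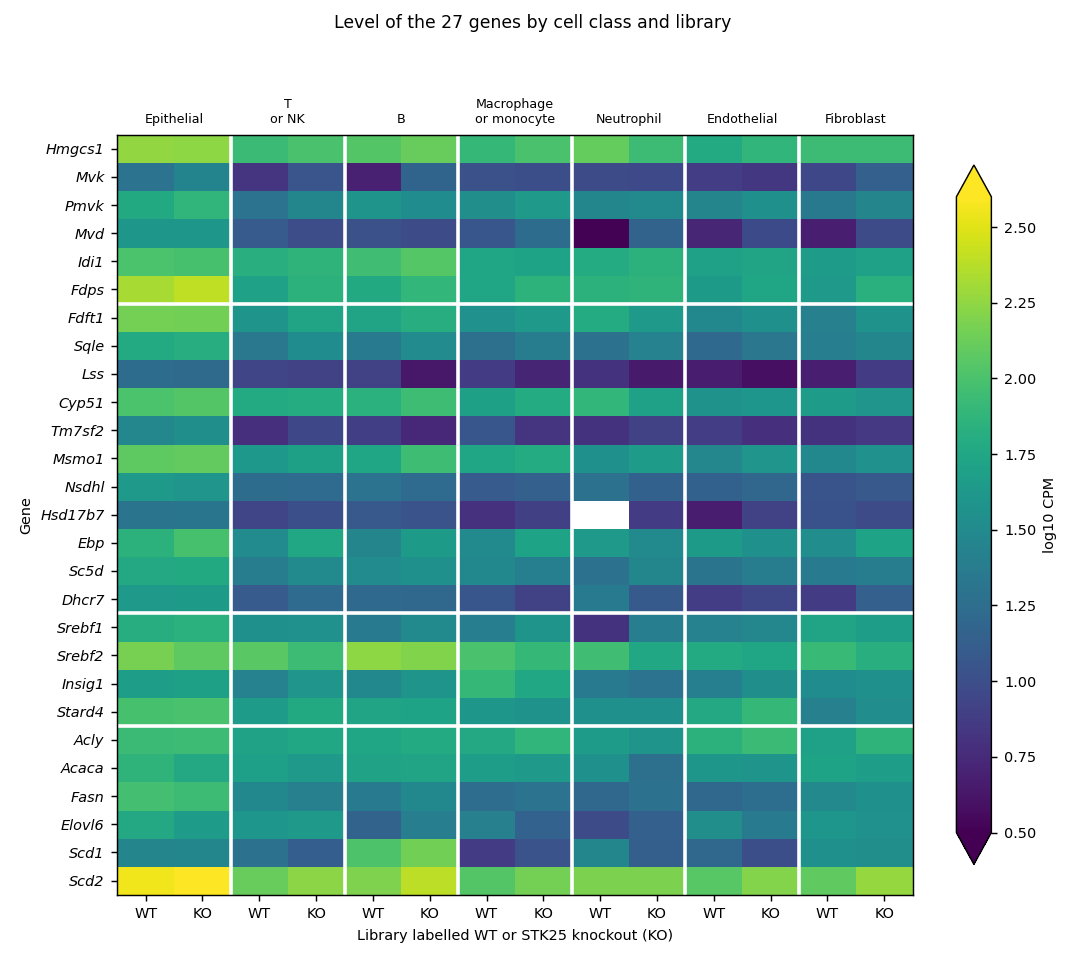
Heat map of the level of each of the 27 genes (rows) in each cell class and library (columns), as CPM on a log10 colour scale, with white for no UMI. Brighter colours are higher levels. The epithelial columns are the brightest for most rows, and the B cell columns are for Scd1.

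In the mevalonate pathway, Hmgcs1, which joins acetyl-CoA to acetoacetyl-CoA, was at 181 and 174 CPM in epithelial cells and lowest in endothelial cells at 61.1 and 76.9. Fdps, which makes farnesyl diphosphate, was at 209.5 and 251 CPM in epithelial cells against 43.5 and 67.7 in fibroblasts. The kinase Mvk was at 19.8 and 28.1 CPM in epithelial cells, and none of the other classes compared passed 15.1. The isomerase Idi1 was the least confined to epithelium. It was at 101 CPM (96.8 to 105) in epithelial cells and 91.2 (77.9 to 106) in B cells of the WT-labelled library, and at 97.9 (95.1 to 101) and 110.4 (89.99 to 134) in the other, so that the order of these classes cannot be told at this depth.

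All 11 genes of squalene and sterol synthesis were highest in epithelial cells in both libraries. Fdft1, squalene synthase, was at 145 and 141 CPM there, and its next highest class was neutrophils at 61.6 CPM in the WT-labelled library and B cells at 64.9 in the other. Sqle, the squalene epoxidase that is a slow step of the pathway, was at 61.3 and 64.3 CPM, and the cyclase Lss, which forms lanosterol, at 17.6 and 16.7. The demethylase Cyp51 showed the smallest lead, at 101 and 109 CPM in epithelial cells against 77.8 in neutrophils of the WT-labelled and 88.7 in B cells of the knockout-labelled library.

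The sterol-sensing genes did not share this order. Srebf2 was higher in B cells, at 174 CPM (155 to 194) and 158 (133 to 186), than in epithelial cells, at 148 (143 to 153) and 121 (118 to 124), and the intervals did not overlap in either library. Insig1, which retains SREBP in the endoplasmic reticulum, was highest in macrophages, at 79.8 CPM (62.8 to 99.8) and 56.9 (49.9 to 64.6), against 46.7 (43.9 to 49.6) and 49.5 (47.5 to 51.6) in epithelial cells. The macrophage and epithelial intervals overlapped in the knockout-labelled library. Srebf1 and the sterol carrier Stard4 were highest in epithelial cells, Stard4 at 98.2 CPM in the WT-labelled library and close to it in the other (log2 ratio 0.03), with endothelial cells next at 58.9 and 78.8 CPM.

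In the fatty acid branch, the desaturases Scd1 and Scd2, which put a double bond into stearate, differed in the order of the classes. Scd2 was the most abundant of the 27 genes in epithelial cells, at 357 and 412 CPM, against 156 and 246 in B cells. Scd1 was highest in B cells, at 104 CPM (89.6 to 119.8) and 141 (118 to 167), against 28.6 (26.4 to 30.9) and 29.1 (27.6 to 30.7) in epithelial cells. Fibroblasts were its next highest class, at 35.6 and 34.4 CPM. Macrophages held 7 and 46 UMIs of Scd1 in all, against 189 and 130 in B cells. A UMI of Scd1 was present in 10.2% and 16.6% of B cells, at a median of 938 and 1225 UMIs per cell, against 2274 and 2927 in macrophages. With each cell thinned to 1000 UMIs, which leaves out 940 and 215 B cells, the shares were 9.12% and 14.5%, against 0.356% and 1.501% of macrophages. Fasn, fatty acid synthase, was at 94.5 and 87.4 CPM in epithelial cells and at 30.8 and 35.9 in fibroblasts, its next highest class. Acly, which supplies cytosolic acetyl-CoA, was nearly level between epithelial cells (84.9 and 87.8 CPM) and endothelial cells (70.2 and 85.0).

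Within the epithelium, 6 states were named from markers and held at least 100 cells in each library. They were Wnt-high stem-like cells (567 and 1032 cells), absorptive colonocytes (187 and 547), cells with the inflammatory markers Duoxa2, Ly6d and Ly6g (537 and 803), transit cells with Cftr, Htr4 and Esrrg (471 and 872), goblet or deep secretory cells (261 and 519) and cells with Krt36 and Klk15 (175 and 399). Absorptive colonocytes had the lowest sum over the 27 genes, at 1507 and 1594 CPM, and Krt36 Klk15 cells the highest in the WT-labelled library at 2802, with 2871 in the other. Transit cells had 2687 and 3019 CPM, goblet cells 2516 and 2592, Wnt-high cells 2295 and 2267, and inflammatory cells 2228 and 2208. The nuclear RNA Malat1, a gauge of nuclear against cytoplasmic RNA, ranged from 17517 and 11304 CPM in absorptive colonocytes to 2947 and 2624 in Krt36 Klk15 cells. The cell cycle genes listed below summed to 1398 and 1103 CPM in Krt36 Klk15 cells, the highest of the 6 states. They summed to 103 and 154 CPM in absorptive colonocytes, the lowest. The part of nuclear RNA and cell cycle in these levels was not tested.

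**Figure D2:**
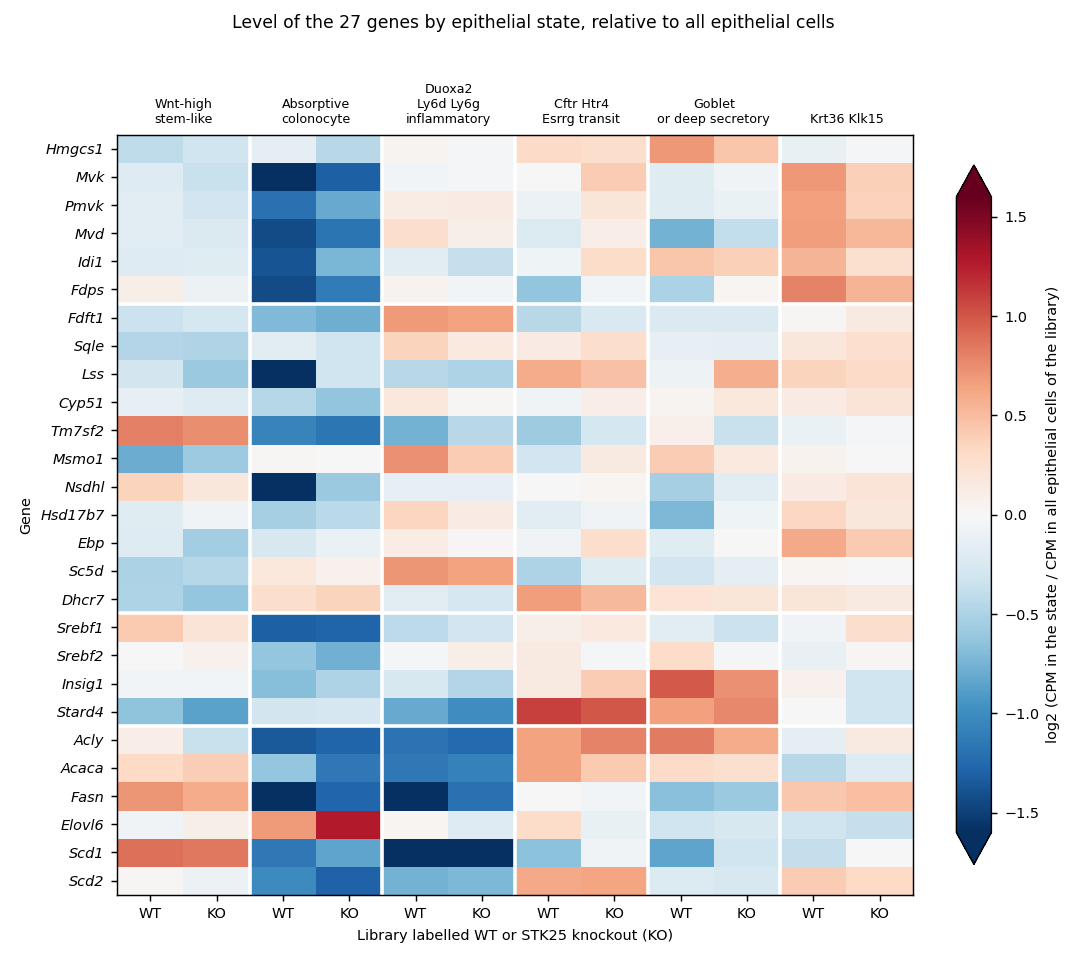
Heat map of the level of each gene in the 6 epithelial states and both libraries, as log2 CPM relative to all epithelial cells of the same library. Fasn and Scd1 stand out in Wnt-high cells, Elovl6 in absorptive colonocytes, Fdft1 and Msmo1 in inflammatory cells and Stard4 in transit cells, and most rows are low in absorptive colonocytes.

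The same state was highest in both libraries for 17 of the 27 genes, against 65.2% of 14487 counted genes, so that agreement on the highest state does not set the members apart. In Wnt-high cells, Fasn was at 154 CPM (145 to 164) and 132 (125 to 139), against 24.9 (15.8 to 37.3) and 36.2 (29.6 to 43.8) in absorptive colonocytes, the state where it was lowest. Scd1 was at 52.9 and 52.4 CPM in Wnt-high cells and at 8.08 and 9.001 in inflammatory cells, and none of the other named states above passed 29.0. Tm7sf2, a sterol reductase, was the third gene highest there, at 51.4 and 58.9 CPM.

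Elovl6, which lengthens palmitate to stearate, ran the other way and was highest in absorptive colonocytes at 94.1 CPM (75.3 to 116) and 109 (97.5 to 122). In the knockout-labelled library none of the other named states above passed 48.3 CPM. In the inflammatory state the members at their highest were 3 enzymes of squalene and sterol synthesis, with Fdft1 at 233 (220.2 to 246) and 219.6 CPM (210.0 to 229.6), the C4-methyl oxidase Msmo1 at 198 and 166, and the desaturase Sc5d at 96.4 and 92.8. In transit cells, Stard4 was at 210.0 (196 to 225) and 199 (189.9 to 208) CPM and nearly 4 times as high as in inflammatory cells, with ratios of 3.74 and 3.95. Scd2 was also highest in transit cells, at 544 and 637 CPM, as were Dhcr7, the last reductase of cholesterol synthesis, at 67.7 and 63.7, and Acaca, which makes malonyl-CoA, at 114 and 77.9.

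Goblet cells held the highest Hmgcs1, at 293 (266 to 322) and 237 (222 to 252) CPM, and the highest Insig1, at 91.9 and 82.1. Krt36 Klk15 cells held the highest Fdps, at 364 (344 to 386) and 367 (353 to 380.5) CPM, with the phosphomevalonate kinase Pmvk at 93.3 and 97.6, the decarboxylase Mvd at 65.0 and 59.7, and the sterol isomerase Ebp at 108 and 129.8. Hmgcs1 and Fdps, the first and last of the listed genes on the way to farnesyl diphosphate, were thus highest in different states.

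The states joined subclusters that differed among themselves. Within the Wnt-high cells, Fdps was at 295 and 283 CPM in subcluster 5, at 91.3 and 80.4 in subcluster 2 and at 84.3 and 90.3 in subcluster 6. Malat1 was at 7722 and 5631 CPM in subcluster 5, at 26478 and 26619 in subcluster 2 and at 12256 and 16324 in subcluster 6. Its part in these levels was not tested. Srebf2, unlike Fdps, was lowest in subcluster 5, at 106 and 98.9 CPM, with 214 and 195 in subcluster 2 and 252 and 247 in subcluster 6. For each of these genes the spread among subclusters of 1 state was larger than the difference between the libraries.

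Between the libraries, the pathway as a whole differed little in epithelial cells. None of the 27 genes lay past 1.5-fold in either direction, where 16.3% of 14706 counted genes did (counted means at least 50 UMIs over both libraries). The median was 4551 UMIs for the members and 1262 for all counted genes, so the 2 shares are not at like counts. Of the 27, 18 were higher and 9 lower in the knockout-labelled library, with a median log2 ratio of 0.03, while over all counted genes 5495 were higher and 9211 lower, with a median of −0.13. The mevalonate genes had a median of 0.14 with 4 of 6 higher, squalene and sterol genes 0.06 with 8 of 11, sterol-sensing and carriage genes 0.06 with 3 of 4, and fatty acid genes −0.04 with 3 of 6.

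**Figure D3:**
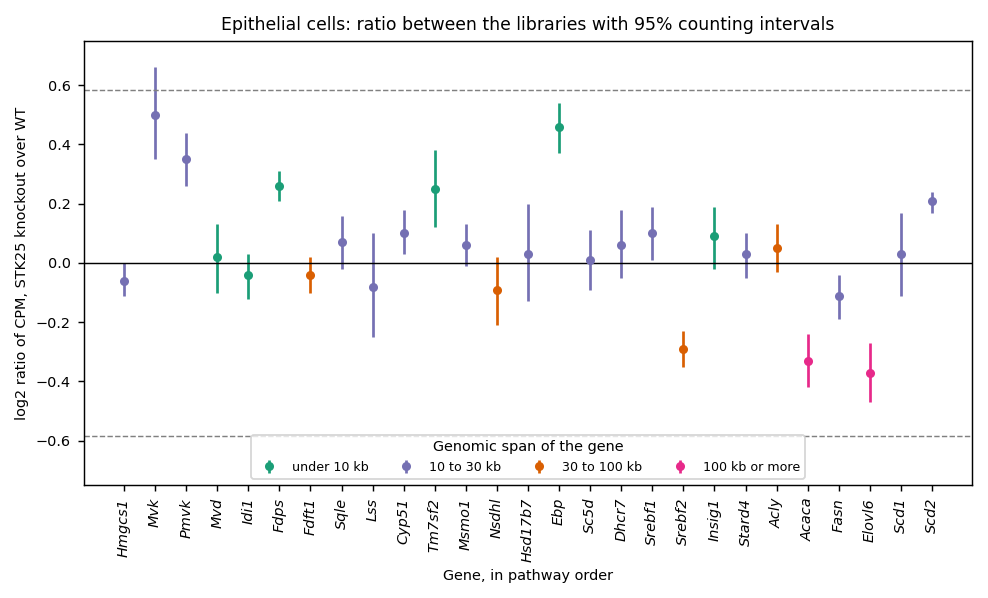
Log2 ratio of the knockout-labelled over the WT-labelled library in epithelial cells for each gene, with exact 95% intervals for counting error, coloured by the genomic span of the gene, with dashed lines at 1.5-fold. All 27 points lie between the dashed lines, Mvk (0.50) and Ebp (0.46) highest and Elovl6 (−0.37) and Acaca (−0.33) lowest.

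The highest ratios were those of Mvk, at 19.8 and 28.1 CPM (log2 0.50, 0.35 to 0.66), Ebp, at 71.0 and 97.5 CPM (0.46, 0.37 to 0.54), and Pmvk, at 59.2 and 75.6 CPM (0.35, 0.26 to 0.44). Fdps followed at 0.26 (0.21 to 0.31), Tm7sf2 at 0.25 (0.12 to 0.38) and Scd2 at 0.21 (0.17 to 0.24). The lowest were Elovl6, at 58.6 and 45.4 CPM (−0.37, −0.47 to −0.27), Acaca, at 72.8 and 58.1 CPM (−0.33, −0.42 to −0.24), and Srebf2, at 148 and 121 CPM (−0.29, −0.35 to −0.23). Fasn was at −0.11 (−0.19 to −0.04). Hmgcs1, Idi1, Fdft1, Sqle, Msmo1, Sc5d, Dhcr7, Insig1, Stard4 and Acly lay between −0.06 and 0.09. The remaining Mvd, Lss, Cyp51, Nsdhl, Hsd17b7, Srebf1 and Scd1 lay between −0.09 and 0.10.

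Gene span moved with these ratios. Over all counted genes in epithelial cells the median log2 ratio was 0.13 for genes spanning under 10 kb, −0.05 from 10 to 30 kb, −0.27 from 30 to 100 kb and −0.45 at 100 kb or more. The members followed the same order, with medians of 0.17 over 6 genes, 0.06 over 15, −0.07 over 4 and −0.35 over 2. Acaca (272 kb, chromosome 11, 84129672 to 84401651 in GRCm38) and Elovl6 (106 kb, chromosome 3, 129532355 to 129638495) are the longest, and Ebp (8.18 kb, chromosome X, 8185329 to 8193512) and Fdps (8.37 kb, chromosome 3, 89093588 to 89101959) are among the shortest. Malat1 was at 11123 and 7440.1 CPM in epithelial cells. With each gene's ratio taken relative to genes of like span, the signs of Acaca and Elovl6 turned, to 0.13 and 0.09. Whether intronic reads were counted is not stated in the labels or methods, and the part of unspliced RNA in these ratios was not tested.

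Other genes of lipid metabolism in epithelial cells did not stand apart. Of 10 further sterol and SREBP pathway genes, 3 were higher and 7 lower in the knockout-labelled library (median −0.13), with Tmem97 at 63.2 and 78.9 CPM and the SREBP-cleaving protease Mbtps1 at 50.04 and 41.1. Of 13 further fatty acid and glycerolipid genes, 5 were higher (median −0.12), and Me1, a source of NADPH, was the 1 past 1.5-fold, at 31.0 and 19.5 CPM. The acyl-CoA synthetase Acsl3 was at 162 and 148 CPM, Mid1ip1, which activates acetyl-CoA carboxylase, at 85.5 and 119, and the desaturase Fads2 at 92.7 CPM with a log2 ratio of 0.11. Of 8 genes of sterol efflux, storage and LXR signalling, 3 were higher (median −0.07), with the lysosomal sterol carrier Npc2 at 231 and 301 CPM, the esterifying enzyme Soat1 at 70.7 and 60.5, and the receptor Nr1h2 at 46.5 and 45.5. Of 12 cell cycle genes, 7 were higher (median 0.04), with Ube2c at 102 and 122 CPM, Mki67 at 119 and 91.0, and Birc5 at 78.3 and 98.3.

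In most other classes, more members lay past 1.5-fold, as did a larger share of all genes in most of them, and counts per gene were lower. In T or NK cells 3 of 27 did (31.9% of counted genes), all higher in the knockout-labelled library. They were Ebp, at 32.3 and 56.7 CPM (0.81, 0.51 to 1.12), Mvk and Sqle. The cluster led by Themis and Lef1 held 2598 and 135 of the T or NK cells, so the class was a different mix in each library. In B cells 4 of 21 did (23.6% of counted genes), with Msmo1 at 55.0 and 88.7 CPM, Ebp at 28.6 and 44.4, Elovl6 at 14.8 and 24.9, with an interval that held 0, and Scd2 at 156 and 246 (0.66, 0.40 to 0.92). In macrophages 4 of 23 did (34.8% of counted genes), with Mvd, Ebp and Srebf1 higher and Elovl6 lower, at 26.2 and 14.6 CPM, and the intervals of Mvd and Srebf1 held 0.

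In fibroblasts 5 of 23 did (14.8% of counted genes), all higher in the knockout-labelled library. Scd2 was at 123 and 187 CPM (0.60, 0.38 to 0.83), Fdps at 43.5 and 67.7 (0.64, 0.25 to 1.03) and Ebp at 34.0 and 52.7 (0.63, 0.20 to 1.08), while the intervals of Mvk and Dhcr7 held 0. In endothelial cells 0 of 20 did (17.4% of counted genes), with Scd2 at 114 and 163 CPM (0.52, 0.25 to 0.80). In neutrophils 8 of 23 did (42.7% of counted genes), 3 higher and 5 lower, on 232 cells in the WT-labelled library, and only Srebf1 and Srebf2 among them had intervals without 0. A neutrophil cluster led by Ngp, Retnlg and S100a9 had 0 and 425 cells and 599 CPM summed over the 27 genes, and the remaining neutrophils had 1057 and 1203 CPM. The medians over the members counted were 0.24 in T or NK cells, 0.35 in B cells, 0.24 in macrophages, 0.24 in endothelial cells, 0.22 in fibroblasts and 0.01 in neutrophils, beside 0.01, −0.01, −0.11, −0.00, 0.02 and −0.16 over all counted genes of those classes. Gene span moved with the ratios here too. In the same order of classes, medians under 10 kb were 0.41, 0.38, 0.40, 0.26, 0.22 and 0.16 over all genes. Over members of that span they were 0.53, 0.37, 0.41, 0.18, 0.39 and 0.05. From 10 to 30 kb, all genes had 0.09, 0.12, 0.05, 0.10, 0.10 and −0.02. Members of that span had 0.26, 0.36, 0.30, 0.33, 0.23 and 0.08.

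**Figure D4:**
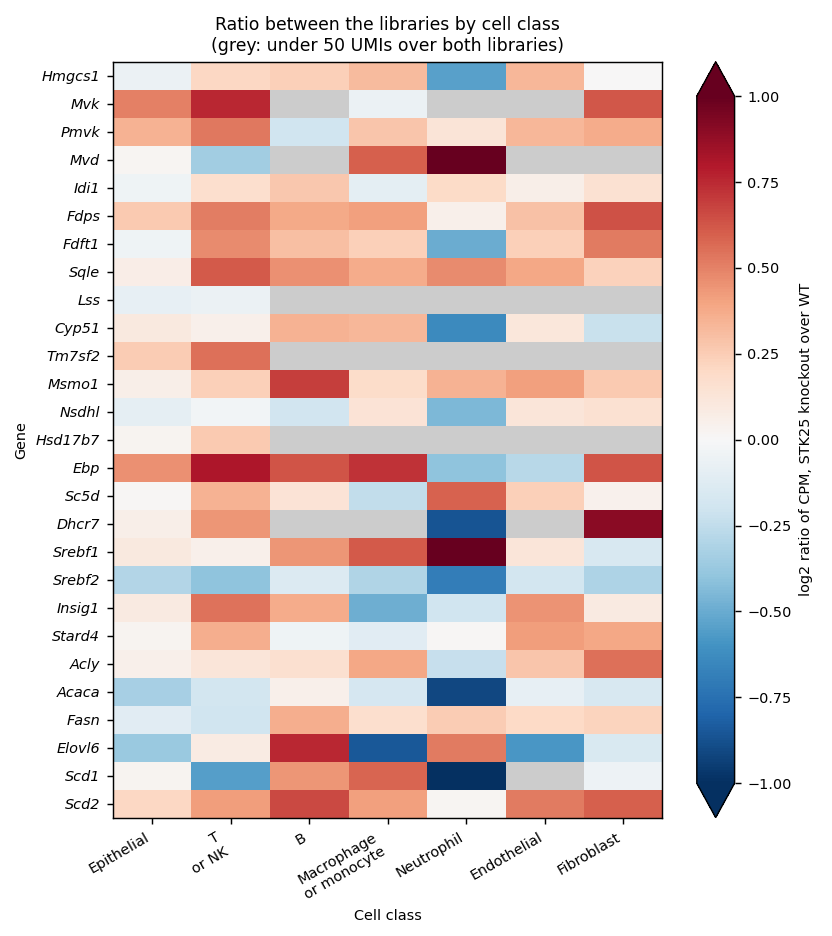
Heat map of the log2 ratio of the knockout-labelled over the WT-labelled library for each gene (rows) in 7 cell classes (columns), with grey where a gene had under 50 UMIs over both libraries. The Scd2 row is above 0 and the Srebf2 row below 0 in all 7 classes.

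Some genes kept 1 direction across classes. Scd2 was higher in the knockout-labelled library in 7 of 7 classes, with log2 ratios of 0.02 to 0.66 and 6 intervals above 0. Fdps (0.05 to 0.64), Sqle (0.07 to 0.61) and Msmo1 (0.06 to 0.69) were also higher in 7 of 7, with 3, 1 and 1 intervals above 0. Ebp was higher in 5 of 7 (−0.40 to 0.81), and all 5 of those intervals lay above 0. Srebf2 was lower in 7 of 7 (−0.69 to −0.14) with 3 intervals below 0, and Acaca was lower in 6 of 7. Srebf2 spans 58.2 kb, in the bin whose median over all genes was −0.27 in epithelial cells. All classes come from the same libraries and are no replicates of the difference.

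Within epithelial states, the fewest members lay past 1.5-fold where the share of all genes that did was lowest, and the counts were uneven elsewhere. None of 27 did in Wnt-high cells (10.3% of counted genes) or in Krt36 Klk15 cells (10.9%). In inflammatory cells 1 of 27 did (24.8%), Elovl6 at 60.1 and 39.3 CPM (−0.61, −0.84 to −0.39). In absorptive colonocytes 5 of 25 did (27.1%), with Pmvk, Idi1, Nsdhl and Ebp higher and Acaca lower. Cells of 1 absorptive subcluster, numbered 16 and led by Cyp2c55 and Aqp8, numbered 27 and 210 and had 2229 and 1652 CPM summed over the 27 genes, and the other, numbered 7, had 160 and 337 cells and 1066 and 1502 CPM, so that they ran in opposite directions. These subclusters were singled out after their values were seen.

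In goblet cells 6 of 27 did (25.03% of counted genes). Fdps was at 148 and 257 CPM (0.80, 0.59 to 1.02) and Ebp at 62.2 and 97.4 (0.65, 0.31 to 0.99), Mvk, Lss and Hsd17b7 were also higher, and Srebf2 was lower at 182 and 119.8 (−0.60, −0.82 to −0.38). All 12 cell cycle genes were higher in these cells too, 10 of them past 1.5-fold (median 1.02). A goblet subcluster led by Spink4, Retnlb and Mptx1 had a median of 1398 and 12021 UMIs per cell, and Malat1 was at 10321 and 6146 CPM over the state. The part of cell cycle, depth and nuclear RNA in the higher Fdps was not tested.

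In transit cells 6 of 27 did (35.9% of counted genes), with Fdps at 135 and 243 CPM (0.84, 0.71 to 0.98), Mvk at 19.9 and 37.3 (0.90, 0.54 to 1.28), Ebp at 68.5 and 118 (0.78, 0.59 to 0.98), Pmvk and Scd1 higher, and Elovl6 lower at 72.1 and 41.9 (−0.78, −1.01 to −0.55). Malat1 was at 8695 and 4623 CPM. The state held 3 subclusters, and these did not share 1 pattern. The description by subcluster was chosen after their values were seen.

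The subcluster led by Esrrg, Htr4 and Ror1 (number 11) held 251 and 284 cells and differed more in the summed level than the other transit subclusters. Its sum over the 27 genes was 2990.2 CPM (2901 to 3081) and 4236 CPM (4122 to 4353). The sum per cell had a median of 2247 CPM (quartiles 1509 and 3358) and 3249 CPM (2334 and 4963), so the cells of the libraries overlapped. In this subcluster 10 of 25 members lay past 1.5-fold, all higher in the knockout-labelled library, where 11.3% of 7608 counted genes did in either direction. Of the 25, 21 were higher and 4 lower, with a median of 0.43 beside 0.01 over all counted genes. A summed level that differed by a like factor was also seen outside the transit state, in absorptive subcluster 7, at 1066 and 1502 CPM.

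The 10 members past 1.5-fold in subcluster 11 came from all 4 groups of members. Idi1 was at 86.0 and 154 CPM (0.84, 0.51 to 1.18) in subcluster 11, Insig1 at 68.5 and 122 (0.84, 0.46 to 1.22) and Cyp51 at 108 and 185 (0.77, 0.47 to 1.07). Msmo1 was at 113 and 187 CPM, Sqle at 71.3 and 114, Sc5d at 44.7 and 72.9 and Srebf1 at 78.3 and 118. In the fatty acid branch, Scd2 was at 610.1 and 999 CPM (0.71, 0.59 to 0.84), Acly at 178 and 296 (0.73, 0.50 to 0.97) and Scd1 at 20.3 and 41.3 (1.03, 0.34 to 1.74). Hmgcs1 was at 294 and 418 CPM (0.51) and Fdft1 at 132 and 177 (0.43), short of 1.5-fold.

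In the same subcluster, all 10 counted genes of the further fatty acid list were higher (median 0.36, 2 past 1.5-fold), 5 of 10 further sterol genes were (median 0.01) and 1 of 4 efflux genes was (median −0.18). None of 8 counted cell cycle genes was higher (median −0.59, 4 past 1.5-fold and lower). Malat1 was at 14976 and 15516 CPM, the share of mitochondrial UMIs was 6.37% and 7.45%, and cells had a median of 4194 and 3468.5 UMIs. The part of nuclear RNA, depth and cell cycle in these ratios was not tested. With every cell thinned to 1000 UMIs, 4 members lay past 1.5-fold, and with the mean over cells 6 did, while the log2 ratio of the summed level stayed between 0.45 and 0.51 (0.50 as given).

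**Figure D5:**
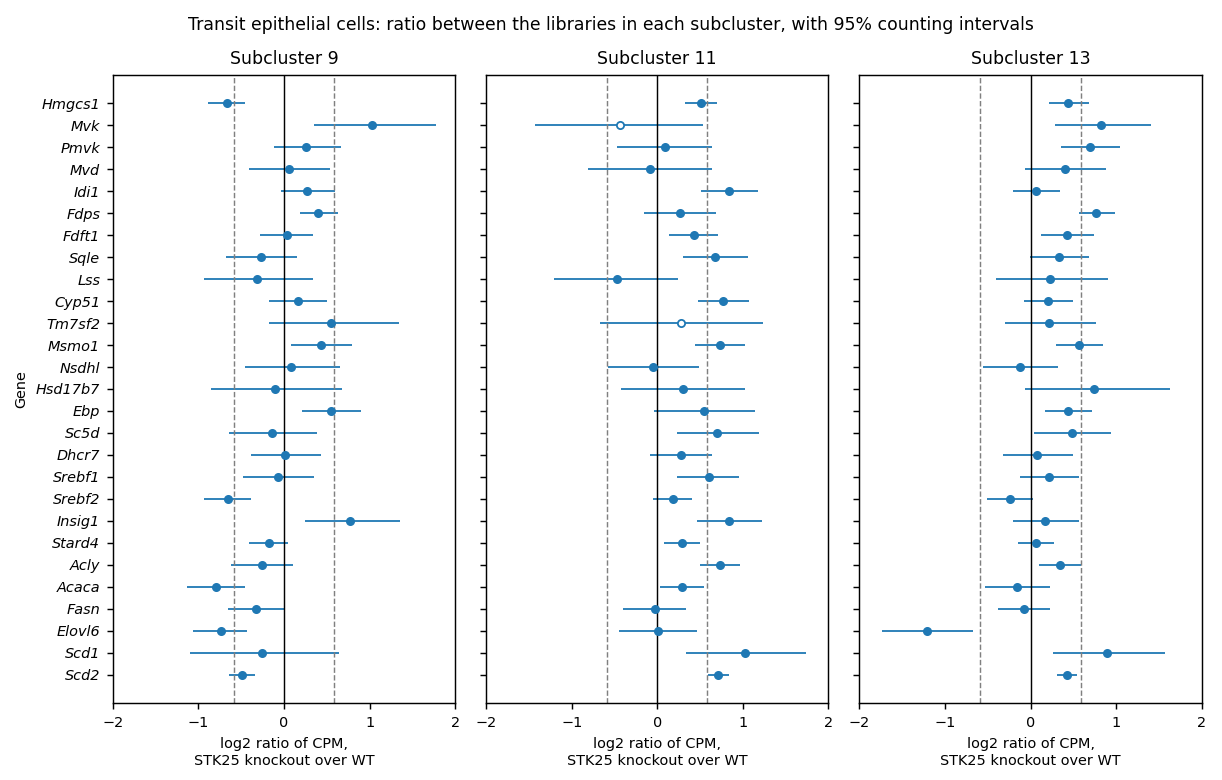
Log2 ratio of the knockout-labelled over the WT-labelled library for each gene in the 3 transit subclusters (1 panel each), with exact 95% intervals for counting error and open points for genes under 50 UMIs. Above 0 lie 21 of 25 counted genes in subcluster 11, 22 of 27 in subcluster 13 and 13 of 27 in subcluster 9.

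Of the other transit subclusters, 1 also had most members higher in the knockout-labelled library and 1 did not. In subcluster 9, led by Hoxb6, Ces1f and Sult1a1 (141 and 276 cells), 13 members were higher and 14 lower, with a median of −0.07 beside −0.19 over all counted genes. There 6 of 27 lay past 1.5-fold (40.6% of counted genes), with Mvk and Insig1 higher and Hmgcs1, Srebf2, Acaca and Elovl6 lower. Hmgcs1 was at 215 and 135 CPM there (−0.67, −0.89 to −0.45), the opposite direction to subcluster 11, and the sum over the 27 genes was 2395 and 2176 CPM. Malat1 was at 6162 and 3301 CPM and the median depth at 4941 and 9945 UMIs per cell. In subcluster 13, led by Sycn, Adh1 and Sult1c2 (79 and 312 cells), 22 members were higher and 5 lower, with a median of 0.33 beside −0.06 over all counted genes. All 6 mevalonate genes and 10 of the 11 squalene and sterol genes were among the 22. In this subcluster 6 of 27 lay past 1.5-fold (17.4% of counted genes), with Mvk, Pmvk, Fdps, Hsd17b7 and Scd1 higher and Elovl6 lower at 41.6 and 18.0 CPM (−1.21, −1.73 to −0.67). Fdps was at 172 and 294 CPM in subcluster 13 (0.77, 0.56 to 0.99), and the sum was 2633 and 3296 CPM.

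Over the 13 epithelial subclusters with at least 50 cells in each library, Srebf2 was lower in the knockout-labelled library in 12 and higher in 1, with 2 intervals below 0. Mvk was higher in all 6 in which it was counted, Ebp in 10 of 12, Dhcr7 in 10 of 12, and Scd2 in 11 of 13 with 8 intervals above 0 and 1 below. Fasn was lower in 10 of 12, Elovl6 in 9 of 13 with 5 intervals below 0 and Acaca in 9 of 13 with 3. Fdps was higher in 8 and lower in 4 of 13, with 5 intervals above 0 and none below.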

How the data were processed

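Tables of UMI counts, not normalized, were deposited for 1 library per group (Cell Ranger 7.1.0, mm10), and Seurat is named without a role. The members and the further lists were chosen with earlier results of these data known. Cells needed 200 genes or more and no more than 25% mitochondrial UMIs. Both libraries were clustered together in scanpy 1.11.5 with igraph 0.11.9 (2000 variable genes without 58 lipid genes, 30 principal components, 20 neighbours, Leiden resolution 1.0, and 0.8 for epithelial subclusters). A name needed 3 markers, each in 10% of cells and 5 points above the median cluster, a mean lead of 10 points, and no other set leading the top 10 genes. These thresholds were set with the data seen. Counts were added up over the cells of a class in each library, with exact Poisson, Clopper-Pearson or conditional binomial intervals (Python 3.11.15, numpy 2.4.6, scipy 1.17.1, pandas 2.3.3). Of the intervals, only the conditional binomial ones were checked, on simulated Poisson counts without spread between cells or libraries. Gene spans are from GENCODE. All 27 members are named, with the 3 most counted genes of each further list, except 1 item that is not reported here. Me1, Malat1 and leading genes of clusters are named beyond that. Doublets were not removed in the values given. Figures were drawn with matplotlib 3.10.9. Alternatives covered filters, doublets, resolution, depth, scaling and shared barcodes.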

Additional observations from a re-analysis of the deposited data

How the results depend on the processing

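No paired analysis was possible because there was 1 library per group, with no replicate numbers. In epithelial cells the log2 ratio of the summed members was 0.06, and it was 0.05 under a stricter filter (500 genes, 10% mitochondrial UMIs), 0.19 as a mean over cells, 0.17 with cells thinned to 1000 UMIs, 0.20 centred on the median of all genes (a shift of −0.13), 0.10 without mitochondrial and ribosomal genes, 0.08 with the unnamed Epcam-positive clusters added and 0.13 centred by gene span. The count past 1.5-fold, 0, became 1 thinned and 2 centred. The neutrophil sum moved from −0.14 to −0.35 without the cells of highest Scrublet score. These were 1204 and 1542 cells over all classes, a share set by the number of cells in the library. The Scrublet threshold itself marked 0 cells in either library. The endothelial sum moved from 0.20 to 0.31 thinned and the macrophage sum from 0.13 to 0.24 centred. Thinning gave 0.42 for absorptive colonocytes (0.08 before), 0.13 for inflammatory cells (−0.01), 0.30 for transit cells (0.17), 0.19 for goblet cells (0.04) and 0.14 for Krt36 Klk15 cells (0.03). Epithelial subclusters at a resolution of 0.5 gave 0.01 for Wnt-high (−0.02), −0.05 for inflammatory and 0.22 for transit cells, and at 1.2 gave 0.02 for Wnt-high and 0.11 for transit cells. In subcluster 11 the count of 10 became 6 as a mean over cells and 4 thinned. The cause of these moves was not tested. Without the cells whose barcode was in both libraries, the epithelial sum was 0.06 and that of subcluster 11 was 0.51. Over 16 settings and 432 gene values in epithelial cells, 32 had the other sign, 3 lay past 1.5-fold and 14 genes kept their sign. Srebf2 ranged from −0.34 to −0.02, Mvk from 0.42 to 0.64 and Ebp from 0.32 to 0.79. The number of members highest in epithelial cells was 21 to 23. The settings with shared barcodes removed, span centring and all those for subcluster 11 were chosen after the data were seen.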

Other observations

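The classes left out of the comparison above gave these values. Glia, with 27 and 25 cells, had 2236 (1890.1 to 2626) and 1623 CPM (1281 to 2028) summed over the 27 genes, and Scd2 was at 468 and 400.4 CPM in them on 31 and 19 UMIs. Plasma cells (35 and 40) had 586 and 558 CPM, the lowest sums of the named classes. Dendritic cells (207 and 143) had 1164 and 1236 CPM, with Pmvk at 65.9 and 102, Fdps at 110.1 and 165 and Scd2 at 72.7 and 131. Their Pmvk was above that of epithelial cells, at 59.2 and 75.6 CPM. Pericytes or smooth muscle (81 and 140) had 875 and 1161 CPM. Among epithelial cells, tuft cells (32 and 42) had 1787 and 1467 CPM and enteroendocrine cells (8 and 30) 1278 and 1445.

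The unnamed clusters held 1974 and 2289 cells, with 1548 and 1930.0 CPM summed over the 27 genes. They were split between the libraries, cluster 9 with 1861 and 161 cells and cluster 11 with 113 and 2128. Over both libraries together, 59.2% of the cells of cluster 9 and 71.3% of those of cluster 11 had a UMI of Epcam. Among T or NK clusters, the one led by Themis and Lef1 (2598 and 135 cells) had 1157 and 1276 CPM and the one led by Il2ra, Ctla4 and Icos had 939 and 1205. The one led by Xcl1, Cd7 and Nkg7 had 856 and 1260.1 CPM.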
